A study of Mus musculus with 11 samples.

Results

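A ChIP-seq library of histone H3 modified at lysine 27 (H3K27), prepared from a mouse leukaemia line of the T lineage, was described across protein-coding genes. Its label and the name of its deposited file disagree about the modification. The sample is labelled H3K27me3 (trimethylation), with an antibody given as Millipore 07-449, whereas the name of its file holds h3k27ac (acetylation). A second library of the same cells carries the opposite conflict, with the label H3K27ac, an antibody given as Abcam ab4729 and a file name that holds h3k27m3. The labels and file names do not by themselves say which is wrong. The 2 libraries are called the h3k27ac-named and the h3k27m3-named library after their files. All segments listed for the h3k27ac-named library were taken, 33646 of the 131715 segments of the 4 histone libraries, and each was set against 21887 protein-coding genes of the mm10 build.

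The cells were 8946 cells, a line of T lymphoblastic leukaemia, that carried retroviral Flag-tagged Zmiz1 with an NGFR marker and an activated Notch1 (L1601PDP) with a GFP marker, and cells positive for both markers had been sorted. The H3K4me1, H3K4me3, h3k27m3-named and input libraries came from this same transduced line, and its Rbpj, Flag-Zmiz1 and ICN1 (intracellular Notch1) libraries were also used. HA-Zmiz1 and a further ICN1 library came from 8946 cells with HA-tagged Zmiz1 and the Notch1 construct DEGFDLNRDP. Both lines carried both transgenes, there was no library of untransduced cells, and each target had 1 library per line, so nothing below was tested against a spread between replicates.

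Acetylation of H3K27 is laid down mainly by the acetyltransferases p300 and CBP and marks active promoters and enhancers. Trimethylation of the same residue is laid down by the Polycomb enzymes Ezh2 and Ezh1 and spreads over silent genes, classically the Hox clusters and other developmental regulators, and the same lysine cannot carry both. H3K4me3 marks the starts of active and poised genes, and H3K4me1 flanks them and marks enhancers. In cells of the T lineage, long stretches of acetylated chromatin lie over genes of T-cell identity.

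The library covered an end of Actb and of Gapdh, genes that every cell uses. Actb, the cytoplasmic actin, had 1 of its ends under a 7.4 kb segment (chr5:142904801-142912200) with 1048 precipitation reads and 212 control reads, or 142 precipitation reads per kb (95% interval 133 to 150.5). Gapdh, the glycolytic dehydrogenase, had its start under a 4.4 kb segment (chr6:125163601-125168000) with 368 precipitation reads and 124 control reads, or 83.6 per kb (75.3 to 92.6). Neither gene had an end under a segment of the h3k27m3-named library, and both had an end under H3K4me3. An end counts as covered when at least 1 base of a segment lies on it, and the intervals of read counts are exact Poisson intervals that cover counting error only. A segment is a run of 200 bp windows that the authors' caller, SICER, placed above the control, so an uncovered end has no listed segment and may still carry some of the mark. These are bulk precipitations, in which fewer marked cells and less mark per cell cannot be told apart.

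The promoters of 5 genes are printed as examples of covered and uncovered starts. Each run holds the 250 bases before the start listed in the RefSeq promoter table (GRCm38.p6, the same build as mm10), 5′ to 3′ on the gene's strand, with every CpG in capitals. That listed start is the end of the gene span in Polr2a, Hoxa9 and Alb, and lies 694 bases inside the span in Gapdh and 52 in Cd3e, so the Gapdh run lies wholly inside the span and the Cd3e run in part. Gapdh, Cd3e (a chain of the CD3 complex of the T-cell receptor) and Polr2a (the largest subunit of RNA polymerase II) were covered at the listed start. Hoxa9 (a homeobox gene of body patterning) and Alb (the serum albumin of liver) were not.
Gapdh (chr6:125165774-125166023, - strand): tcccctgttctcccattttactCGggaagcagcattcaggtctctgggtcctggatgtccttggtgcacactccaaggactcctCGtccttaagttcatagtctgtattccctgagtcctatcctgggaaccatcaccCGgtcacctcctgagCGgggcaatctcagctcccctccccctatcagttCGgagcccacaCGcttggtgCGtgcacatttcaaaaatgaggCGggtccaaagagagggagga
Cd3e (chr9:45009612-45009861, - strand): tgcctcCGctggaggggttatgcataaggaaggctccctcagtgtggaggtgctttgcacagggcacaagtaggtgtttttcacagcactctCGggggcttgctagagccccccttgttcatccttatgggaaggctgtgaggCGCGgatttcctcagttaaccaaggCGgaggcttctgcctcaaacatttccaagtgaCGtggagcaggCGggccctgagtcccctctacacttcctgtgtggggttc
Polr2a (chr11:69758634-69758883, - strand): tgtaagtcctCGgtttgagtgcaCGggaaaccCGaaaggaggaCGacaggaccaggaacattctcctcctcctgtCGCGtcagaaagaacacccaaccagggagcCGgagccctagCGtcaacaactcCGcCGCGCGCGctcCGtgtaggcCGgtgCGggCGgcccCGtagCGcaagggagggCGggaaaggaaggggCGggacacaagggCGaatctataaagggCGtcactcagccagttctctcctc
Hoxa9 (chr6:52227371-52227620, - strand): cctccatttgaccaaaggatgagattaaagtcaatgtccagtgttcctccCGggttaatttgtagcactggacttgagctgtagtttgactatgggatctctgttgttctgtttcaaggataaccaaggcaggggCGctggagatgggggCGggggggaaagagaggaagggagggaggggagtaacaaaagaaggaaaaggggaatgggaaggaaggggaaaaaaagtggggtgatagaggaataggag
Alb (chr5:90460620-90460869, + strand): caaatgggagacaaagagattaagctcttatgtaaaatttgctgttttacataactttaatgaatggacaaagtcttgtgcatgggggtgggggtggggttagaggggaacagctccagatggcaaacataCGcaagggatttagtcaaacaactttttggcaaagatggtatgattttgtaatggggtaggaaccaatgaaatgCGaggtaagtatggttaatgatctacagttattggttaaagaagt
Polr2a held 23 CpG in these bases, Gapdh 8 and Cd3e 7, and the uncovered Hoxa9 and Alb held 3 and 2. Over the 300 bases that also take in the first 50 of the gene, the ratio of observed to expected CpG was 0.995 in Polr2a, 0.501 in Gapdh and 0.333 in Cd3e, against 0.280 in Hoxa9 and 0.272 in Alb. Cd3e thus had a covered start at a CpG ratio close to that of the uncovered pair. Neither Cd3e nor Hoxa9 was typical of its gene list described below. Cd3e had the highest ratio of 14 T-cell receptor and surface genes (median 0.191). Hoxa9 had the lowest of 16 developmental regulators (median 0.817, highest 1.18).

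The segments lay at gene starts far more than at the other ends of genes. Strand could be assigned to 17492 of the 21887 genes, and of these 7314 had a covered start (41.8%, exact Clopper-Pearson 95% interval 41.1 to 42.6) and 1399 a covered far end (7.998%, 7.60 to 8.41). H3K4me3 covered 45.9% of starts and 5.24% of far ends, H3K4me1 16% and 11.1%, and the h3k27m3-named library 15.5% and 6.60%. Over all 21887 genes, either end was covered in 9442 (43.1%) and any base of the span in 11428 (52.2%). The h3k27m3-named library covered either end of 4130 genes (18.9%).

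**Figure D1:**
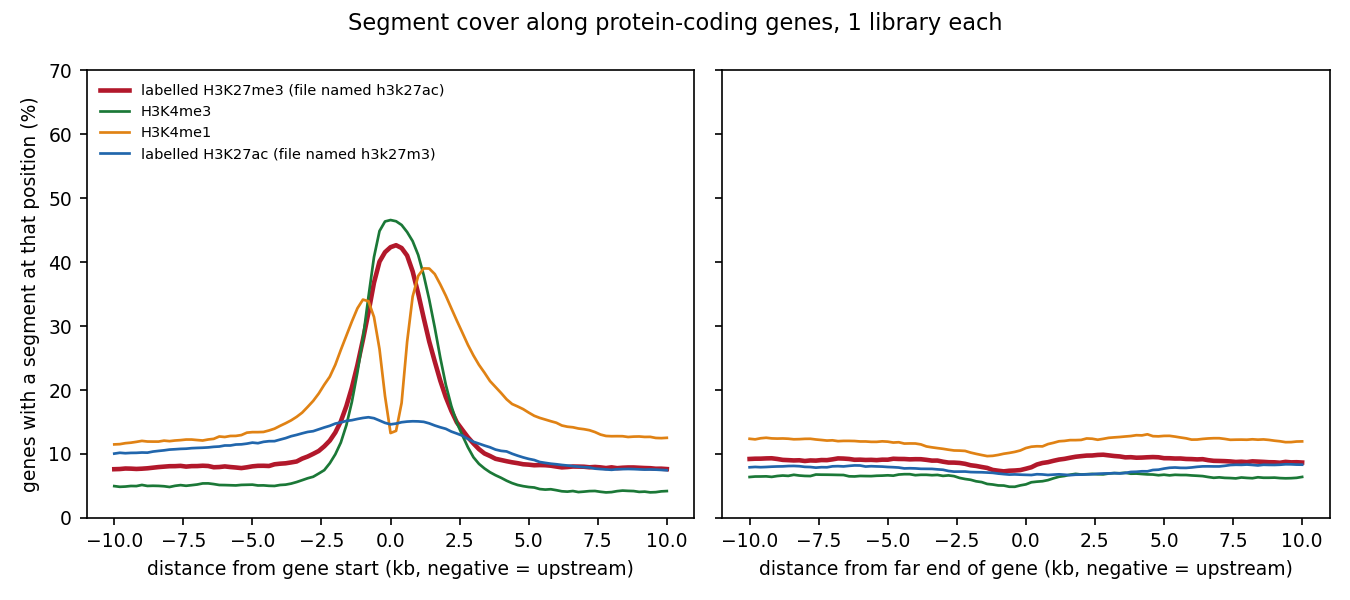
Percent of 14731 genes with 1 listed start that have a segment at each distance from the gene start (left) and from the far end (right), for the 4 histone libraries. The h3k27ac-named library (thick line) reaches 42.7% at 200 bp past the start and stays under 10% along the far end, H3K4me3 follows it closely, H3K4me1 dips at the start, and the h3k27m3-named library has a low, broad rise, with 15.7% at 800 bp upstream and 7.45% at 10 kb downstream.

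Around the start the cover was narrow and leaned into the gene. The 14731 genes with 1 start in the promoter table were taken at that start, which lay within 1 base of the end of the span in 62.5% of them and within 100 bases in 78.4%. Of these genes, 42.4% were covered at the start itself, 27.9% at 1 kb upstream and 35.1% at 1 kb downstream. At 2 kb the shares were 13.4% upstream and 18.9% downstream, and from 5 kb on they were flat, with 8.06% and 8.32% at 5 kb and 7.61% and 7.63% at 10 kb. Where the start was covered, the segment reached a median of 1.29 kb upstream and 1.74 kb downstream, and it reached further downstream at 3993 of 6239 starts (64.0%). H3K4me1 showed the opposite shape, with 13.3% of genes covered at the start and up to 39.0% at 1200 bp past it.

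Most covered genes carried the mark at the start and along little of the body. Of the 17492 genes with a strand, 6290 had a covered start and an uncovered far end (36.0%). A further 713 had both ends under separate segments (4.08%), and 311 lay under 1 segment from start to far end (1.78%, with a median span of 2.07 kb). The far end alone was covered in 375 genes (2.14%) and the body alone in 1562 (8.93%). The 1562 were long, with a median span of 52.5 kb. No base was covered in 8241 genes (47.1%), whose median span was 9.44 kb. Among the 7314 genes with a covered start, the median share of the span under segments was 15.6% (quartiles 7.25% and 34.7%). At least 50% of the span was covered in 1149 of them, and less than 10% in 2537.

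Cover varied with gene length. The start was covered in 10.3% of genes up to 2 kb long, in 36.5% of those of 2 to 5 kb and in 52.8% of those of 20 to 50 kb, and in 23.5% of genes over 200 kb. The shortest class holds many members of the receptor families described below. The length under segments in genes with a covered start grew from a median of 1.74 kb in genes of 2 to 5 kb to 27.7 kb in those over 200 kb. The longest genes with a covered start were Dlg2 (1973 kb, a synaptic scaffold), Ctnna3 (1574 kb, an alpha-catenin), Immp2l, Agbl1 and Sugct. Ctnna3 had 0.0320% of its span under segments and Dlg2 1.02%, whereas Sugct had 21.3%. Lsamp, Nrxn3, Fhit, Dpp10 and Magi2 were the longest with an uncovered start and some covered sequence, 0.161% of the span in Fhit and 3.16% in Dpp10.

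Segments ran from 200 to 113600 bp, with a median of 2600 bp (quartiles 1600 and 4400 bp), and together covered 131 Mb. Precipitation reads per kb of segment had a median of 41.7 (quartiles 31.0 and 65.5), against 24.2 control reads per kb. The deposited fold over the control had a median of 2.84. Segments over a gene end were the densest class. The 8494 of them (25.2% of all) held a median of 72.1 reads per kb at a median width of 3200 bp. The 14659 segments wholly inside a gene span (43.6%) held 35.0 reads per kb, and the 10493 outside all spans (31.2%) held 37.7, both at a median width of 2400 bp. Among the upper 50% of segments by fold, those over a gene end were the largest class, at 42.1%, with 32.1% inside and 25.8% outside spans. Segments over a far end and over no start were in between, at 45.8 reads per kb.

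Wider segments were denser, and carried more peaks of some factors than of others. Median reads per kb went up with width through 32.9 at 1 to 2 kb, 43.2 at 2 to 5 kb, 59.6 at 5 to 10 kb and 74.0 at 10 to 20 kb to 92.4 in the 404 segments over 20 kb, while the narrowest segments, up to 1 kb, held 39.0. The widest 5% (1682 segments) held 32.9% of the reads in segments and 23.2% of the covered bases. H3K4me3 met 29.3% of segments up to 1 kb and 99.0% of those over 20 kb. A wide segment has more bases in which to meet a peak, so factor peaks were also counted per Mb of segment. Peaks of HA-Zmiz1, the coactivator, lay at 8.13 per Mb in segments up to 1 kb, 24.9 per Mb at 2 to 5 kb and 63.7 per Mb over 20 kb. Those of ICN1 in the HA-tagged line lay at 0.856, 1.60 and 8.26 per Mb in the same classes. Peaks of Rbpj, the DNA-binding partner of ICN1, showed no such gradient, with 108, 158 and 114 per Mb. Peaks from the Flag-tagged line, which gave the segments, did not follow the HA-tagged line, with 1.28, 0.485 and 0.491 per Mb for Flag-Zmiz1 and 0.428, 0.253 and 0.982 per Mb for ICN1, on few peaks (3, 23 and 6, and 1, 12 and 12).

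**Figure D2:**
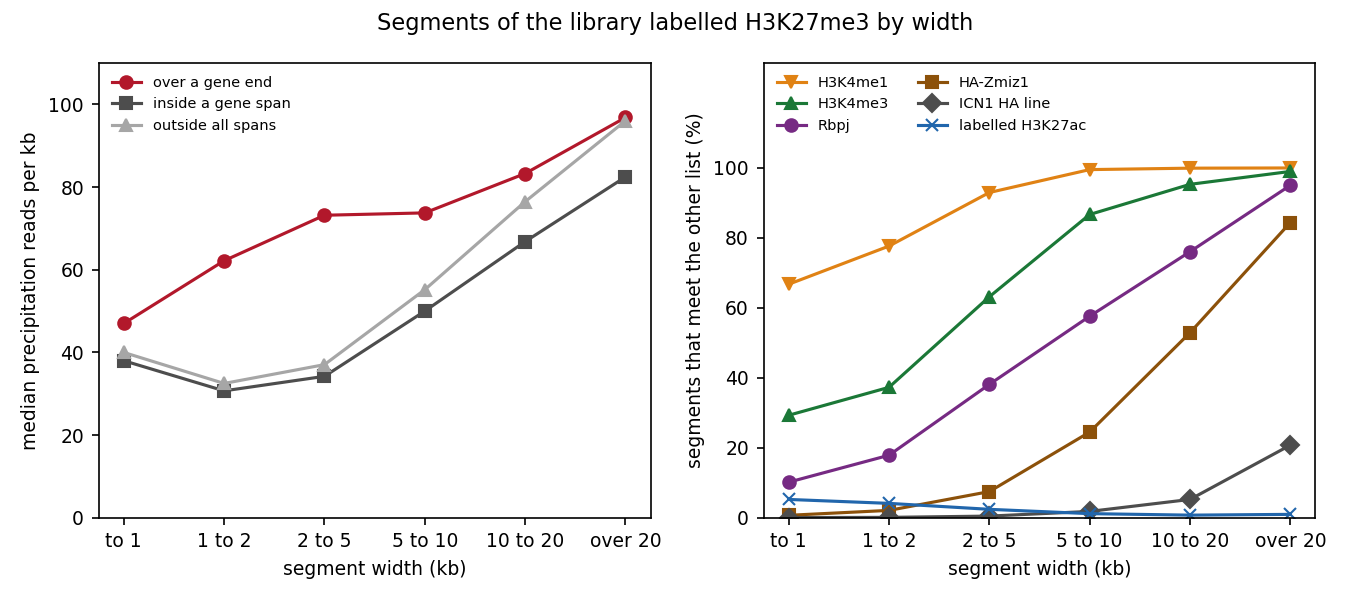
Segments of the h3k27ac-named library in 6 width classes, with median precipitation reads per kb by position relative to genes (left) and the percent of segments that meet each other list by at least 1 bp (right). Segments over gene ends are the densest in each class, by least in the widest (96.8 against 96.0 outside all spans), and in segments over 20 kb the shares with H3K4me3, Rbpj and HA-Zmiz1 are 99.0%, 95.05% and 84.4%.

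Peak lists of the 5 factor libraries differed in how much of them lay in these segments. The peak centre lay in a segment for 4655 of 4984 HA-Zmiz1 peaks (93.4%), 17968 of 20993 Rbpj peaks (85.6%) and 369 of 414 ICN1 peaks of the HA-tagged line (89.1%). It did so for 67 of 581 Flag-Zmiz1 peaks (11.5%) and 42 of 82 ICN1 peaks of the Flag-tagged line (51.2%). The segments come from the Flag-tagged line, as do the Rbpj peaks, whereas the HA-Zmiz1 peaks come from the HA-tagged line.

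At gene starts the h3k27ac-named library and H3K4me3 went together, and the h3k27m3-named library was largely apart from it. Of the 7314 starts covered here, 7079 (96.8%) also had H3K4me3. Of the 8032 starts with H3K4me3, 88.1% were covered here, against 235 of the 9460 starts without it (2.48%). With these starts split into 4 equal groups by H3K4me3 reads per kb, 60.5% were covered in the lowest group and 95.3%, 97.9% and 98.9% in the others. The density of the H3K27 segments grew with it, from a median of 55.5 reads per kb in the lowest group to 92.3 in the highest. Only 225 of the starts covered here (3.08%) were also under an h3k27m3-named segment, or 8.31% of the 2709 starts that library covered. Among starts with H3K4me3, 222 of the 839 that also had the h3k27m3-named mark were covered here (26.5%, 23.5 to 29.6), against 6857 of the 7193 without it (95.3%, 94.8 to 95.8). The 2 lists shared 1.12 Mb, or 0.858% of the bases covered here.

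Nearly all genes of the housekeeping, basal transcription and cell-cycle lists had an end covered. An end was covered in 19 of 20 housekeeping genes, in 20 of 20 genes of general transcription and Mediator and in 19 of 20 genes of the cell cycle and replication, against 43.1% of all protein-coding genes. Median densities were 100.5, 79.5 and 94.7 reads per kb and median widths 5, 3.2 and 5 kb, against 74.6 reads per kb and 3.4 kb over all genes with a covered end. Ppia, a cyclophilin, had the densest segment of these lists, with 737 reads in 4 kb (184 per kb). The replicative helicase subunits Mcm2 and Mcm3 had 322 reads in 3.4 kb and 186 in 2.8 kb. Taf1, the largest subunit of TFIID and a gene of the X chromosome, was among the thinnest, with 104 reads in 3.2 kb (32.5 per kb). The exceptions were near misses. Ywhaz, a 14-3-3 protein, had its nearest segment 1.26 kb from an end and 51.3% of its span covered, and Ccna2, the S-phase cyclin, had a segment 0.038 kb from an end. No gene of these 3 lists had an end under the h3k27m3-named library.

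**Figure D3:**
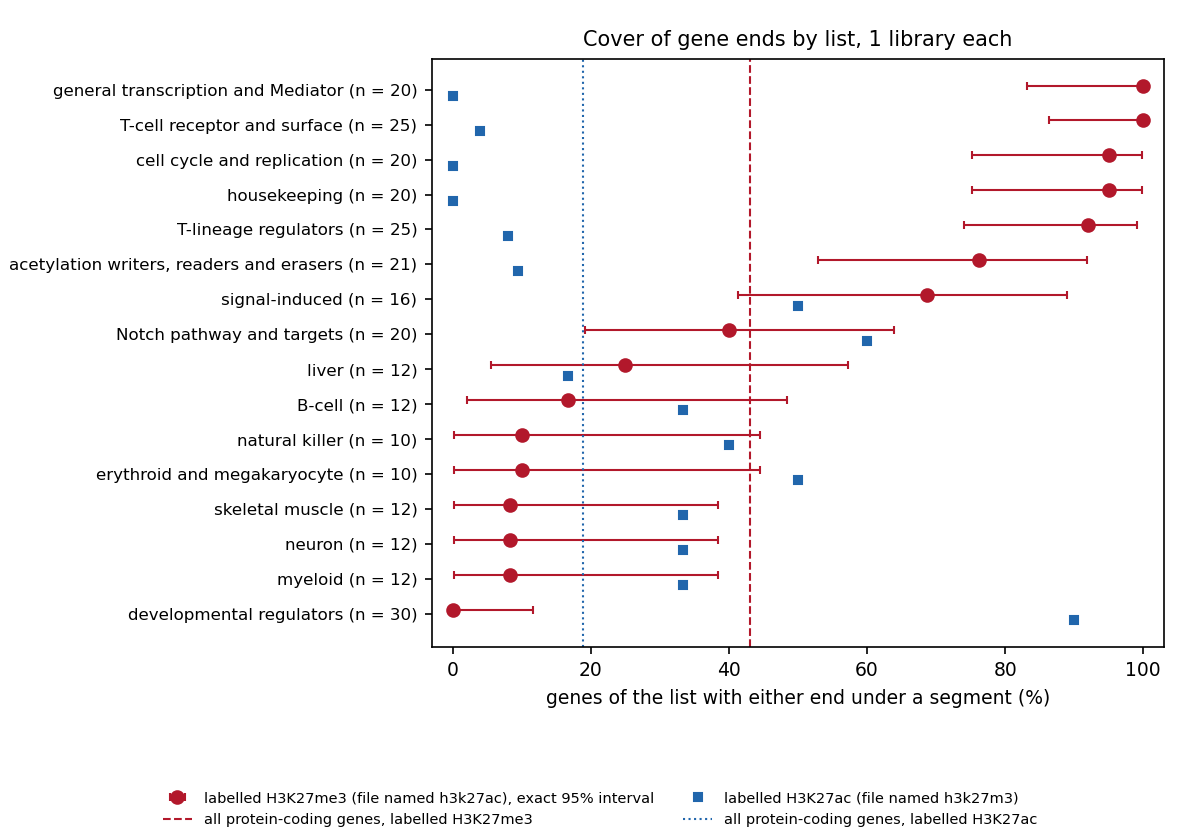
Percent of the genes of each of 16 lists with either end under a segment, for the h3k27ac-named library (red, with exact 95% intervals) and the h3k27m3-named library (blue squares), with dashed and dotted lines at their shares of all protein-coding genes (43.1% and 18.9%). The T-cell, housekeeping, cell-cycle and transcription lists sit at 92% or more in the h3k27ac-named library, and the developmental regulators sit at 0 in it and at 27 of 30 in the other.

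Genes of the T-cell receptor and surface had an end covered in all 25 members, against 43.1% of all protein-coding genes. Their segments had a median width of 13.6 kb, and a median of 72.4% of the gene span was covered. Cd3e lay wholly under a 32.4 kb segment with 2889 reads (89.2 per kb). Its neighbours Cd3d and Cd3g, the other chains of the same complex, shared a 13.6 kb segment with 1909 reads (140.4 per kb). The co-receptor chains Cd8a and Cd8b1 lay wholly under adjacent segments of 34.4 kb with 5282 reads and of 30.4 kb with 5308 reads. Cd4, the other co-receptor, had 79.6% of its span covered, with 658 reads in the 8.8 kb segment over its end. Thy1, a surface glycoprotein, lay under a 46 kb segment with 5355 reads, and the adhesion receptor Cd2 under 35.2 kb with 4146. The kinases Lck and Zap70, which act directly below the receptor, had 1017 reads in 9.4 kb and 1007 reads in 10.8 kb.

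Not all members of this list were dense. The receptor chain Cd247 had 137 reads in the 3 kb over its start (45.7 per kb, fold 1.89), while 72.4% of its span lay under segments. Ptcra, the pre-T-cell receptor chain, had 152 reads in 4.6 kb. Trat1, a receptor-associated adaptor, had 164 reads in 5 kb and was the only member of the list with an end covered here and none under H3K4me3. Il2ra, the interleukin-2 receptor alpha chain, was the only one with an end also under the h3k27m3-named library. With the upper 50% of segments by fold alone, 21 of the 25 had an end covered.

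Regulators of the T lineage had an end covered in 23 of 25 members, against 43.1% of all genes, at a median of 92.5 reads per kb and 14.4 kb. Tcf7, which encodes the early T-lineage factor TCF-1, lay wholly under a 78.2 kb segment with 10202 reads (130.5 per kb), the widest of all list genes. Its relative Lef1 had 1524 reads in 17.2 kb over the start. Gata3, required for T-cell commitment, had 122 reads in the 3.2 kb over its start (38.1 per kb), with 62.0% of its span covered in all. Of the Ikaros family, Ikzf1 and Ikzf3 were dense, with 3148 reads in 20.8 kb at Ikzf1 and 5835 reads in 54.2 kb at Ikzf3, whereas Ikzf2 had 133 reads in 3.6 kb. Spi1, a myeloid and early thymic factor that is silenced at commitment, was covered at an end with 295 reads in 3.4 kb, with no H3K4me3 over either end. Runx3 and Zbtb7b, which direct the CD8 and CD4 fates, were uncovered, with the nearest segment 26.2 kb and 0.328 kb from an end. Zbtb7b had an end under the h3k27m3-named library and Runx3 did not.

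**Figure D4:**
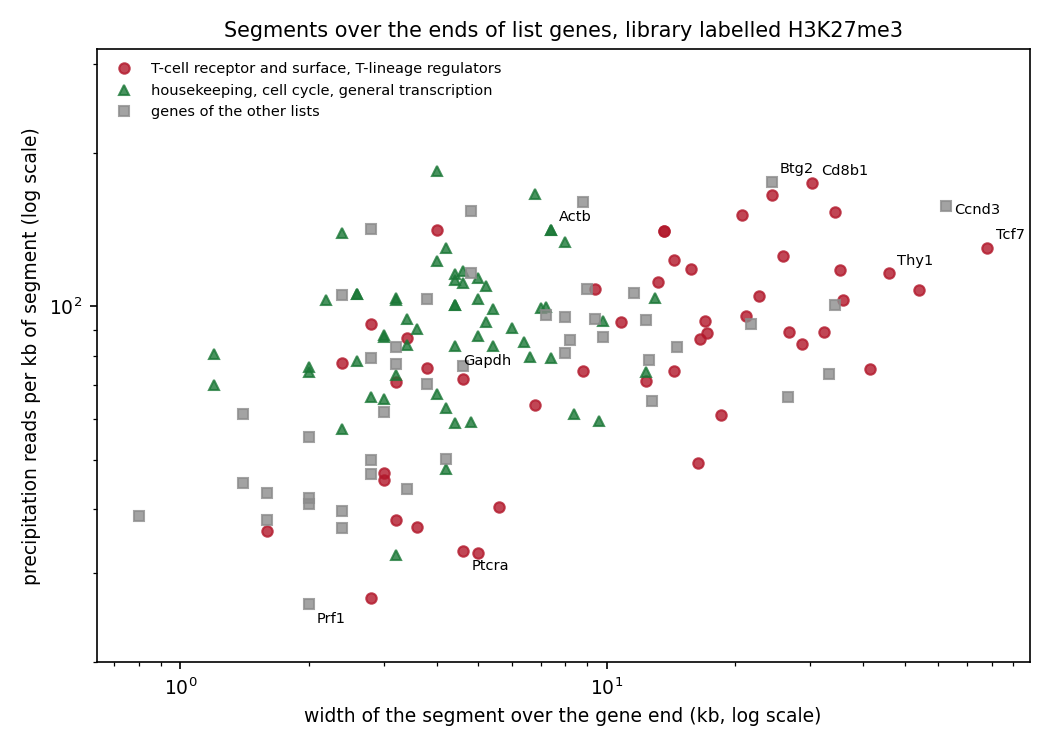
Width and precipitation reads per kb of the segment over the end of each covered list gene (both axes on a log scale), with T-cell lists as red circles, housekeeping, cell-cycle and transcription genes as green triangles and the other lists as grey squares. T-cell genes run to the widest segments (Tcf7 at 78.2 kb), while the green triangles stay at 13 kb or less over much the same range of reads per kb.

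The T-cell lists reached wider segments than the housekeeping lists, at overlapping densities. The 19 housekeeping segments reached at most 13 kb and the general transcription segments 9.6 kb, against 46 kb and 78.2 kb in the T-cell lists. Densities reached 175 reads per kb in genes of the T-cell receptor and surface and 184 in housekeeping genes. These differences are descriptions of 1 library, and no test of them was made.

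The enzymes that write, read and erase acetylation had an end covered in 16 of 21 members, against 43.1% of all genes. Ep300 and Crebbp, which encode p300 and CBP, had 988 reads in 12.6 kb and 131 reads in 2.8 kb. Kat2a, the GCN5 acetyltransferase, had 393 reads in 3.8 kb, and Brd2, a bromodomain reader, 1414 reads in 8.8 kb (161 per kb). The deacetylase Hdac7, prominent in thymocytes, stood apart from the other deacetylases with a 34.4 kb segment and 3460 reads. Brd3, the testis gene Brdt, Hdac4, Hdac9 and Hdac11 had no covered end. Of these, Brdt had 42.2% of its span under segments and Hdac4 15.2%. Brd3 had a segment 0.425 kb from an end and 9.02% of its span covered. Hdac9 lay 129 kb from the nearest segment at its ends, with 1.01% of its span covered, and Hdac11 had no covered base. Ep300 and Hdac7 lie on chromosome 15, where control reads were also high, at 41.8 and 37.2 control reads per kb of their segments.

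Signal-induced genes had an end covered in 11 of 16 members, with an exact 95% interval (41.3% to 89.0%) that includes the 43.1% of all genes. An end lay under the h3k27m3-named library in 8, against 18.9%. Btg2, an antiproliferative gene, lay wholly under a 24.4 kb segment with 4293 reads (176 per kb), and Junb under 12.4 kb with 1165 reads. Fosb and Jun had 88 reads in 2.4 kb and 86 reads in 1.4 kb, and ends of both were also under the h3k27m3-named library. Fos, Egr2, Egr3, Nr4a1 and Zfp36 were uncovered. Fos had its nearest segment 17.1 kb from an end, and Zfp36, an mRNA decay factor, 0.384 kb.

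In the Notch pathway an end was covered in 8 of 20 genes, close to the 43.1% of all genes. An end lay under the h3k27m3-named library in 12 of 20, against 18.9% of all genes. All 4 receptor genes were covered at an end. Notch1 and Notch4, unlike Notch2 and Notch3, also had an end under the h3k27m3-named library. Notch1, the receptor gene activated in T-cell leukaemia, had 95 reads in 2.4 kb (39.6 per kb), and Notch3 had 835 reads in 12.8 kb (65.2 per kb). Notch2 had 63 reads in 1.4 kb, and Notch4 763 reads in 8 kb over its far end. The ligand genes Dll1, Dll4, Jag1 and Jag2 had no covered end, nor did Rbpj itself, although 19.1% of the Rbpj span lay under segments. Dll4 had a segment 0.935 kb from an end, and Jag2 had 7.27% of its span covered. Among the classical targets, Hes1, Hes5, Hey1, Heyl, Dtx1 and Nrarp had no covered end. The nearest segment lay 210 kb from Hes1, 4.80 kb from Dtx1, 1.43 kb from Hes5 and 1.04 kb from Heyl. Segments covered 33.1% of the Heyl span and 14.5% of the Dtx1 span, and no base of Hes1, Hes5, Hey1 and Nrarp. Myc, a Notch1 target in T-cell leukaemia, lay wholly under an 11.6 kb segment with 1231 reads and 36.9 control reads per kb. Ccnd3, the D-type cyclin of thymocytes, had 92.0% of its span covered and 9838 reads in 62.4 kb (158 per kb). Igf1r had 84 reads in 2 kb over its start, and Maml1, a coactivator of ICN1, 222 reads in 2.8 kb. Zmiz1 had no covered end, with 8.43% of its span under segments and the nearest 14.1 kb from an end.

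Markers of other lineages were mostly uncovered. An end was covered in 2 of 12 B-cell, 1 of 12 myeloid, 1 of 10 erythroid and megakaryocyte and 1 of 10 natural killer genes. It was covered in 3 of 12 liver, 1 of 12 neuronal and 1 of 12 skeletal muscle genes, against 43.1% of all protein-coding genes. The exact 95% intervals of the B-cell (2.09% to 48.4%), erythroid and natural killer (both 0.253% to 44.5%) and liver (5.49% to 57.2%) lists include 43.1%. Those of the myeloid, neuronal and muscle lists (each 0.211% to 38.5%) do not. The covered genes of the B-cell list were Igll1, a surrogate light chain, with 558 reads in 4.8 kb, and Cd79a, whose far end lay under an 8.2 kb segment with 705 reads. Cd79b and Ms4a1 had no covered base. The myeloid exception was Itgam (CD11b), with a 33.2 kb segment and 2451 reads (73.8 per kb), while Lyz2, Mpo and Elane had no covered base. Klf1, an erythroid factor, had 140 reads in 2.8 kb over its far end, and Gata1 and Epor had no covered end. The natural killer exception, Prf1 (perforin), was thin, with 52 reads in 2 kb (26 per kb, fold 1.72), and Ncr1, Klrb1c and Eomes were uncovered.

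Among genes of solid tissues, Tat (tyrosine aminotransferase) had 890 reads in 9.4 kb, F2 (prothrombin) 2016 reads in 21.8 kb and Ambp 69 reads in 1.6 kb, while Alb, Apoa1 and Apob had no covered base. In the neuronal list, Snap25, Syt1 and Gria1 had no covered base. Pygm, the muscle glycogen phosphorylase, had 693 reads in 7.2 kb over its far end, and Myh1, Myh4 and Acta1 had no covered base. Whether such segments belong to the named gene or to a neighbour was not tested.

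Developmental regulators formed the opposite pole. None of 30 had an end covered (exact 95% upper limit 11.6%), against 43.1% of all genes, and 27 of the 30 had an end under the h3k27m3-named library, against 18.9%. Hoxa9, Hoxb1 and Hoxc8 had no covered base, with the nearest segments 187, 72.0 and 4.73 kb away. Sox2, a pluripotency and neural factor, lay 568 kb from the nearest segment. Some sequence was covered in 3 of the 30, among them Pax7 and Lhx2, with 6.63% and 12.5% of their spans. H3K4me3 lay over an end of 3 of the 30, among them Lhx2 and Irx3. All but Nkx6-1, Six2 and Tbx5 had an end under the h3k27m3-named library.

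CpG content separated covered from uncovered starts over all genes, and the T-cell and developmental lists ran against it. In the 300 bases around the listed start (250 before and 50 after), with cover taken at that start, the 6239 covered promoters held a median of 22 CpG and a ratio of observed to expected CpG of 0.811, against 4 CpG and 0.258 in the 8492 uncovered ones. GC content was 61.3% against 50%. The share of covered starts grew from 3.16% at ratios under 0.1 to 82.7% at ratios of 1 or more. Promoters of the T-cell receptor and surface list had ratios of 0 to 0.333 (median 0.191, 14 genes), and all 14 starts were covered, although over all genes at ratios of 0.1 to 0.2 the covered share was 5.43%. Developmental regulators had a median ratio of 0.817 (16 genes), and none of their 16 starts was covered, although over all genes at 0.8 to 0.9 the share was 77.2%. T-lineage regulators, by contrast with the receptor genes, had CpG-rich promoters (median 0.832, 8 genes, all covered).

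**Figure D5:**
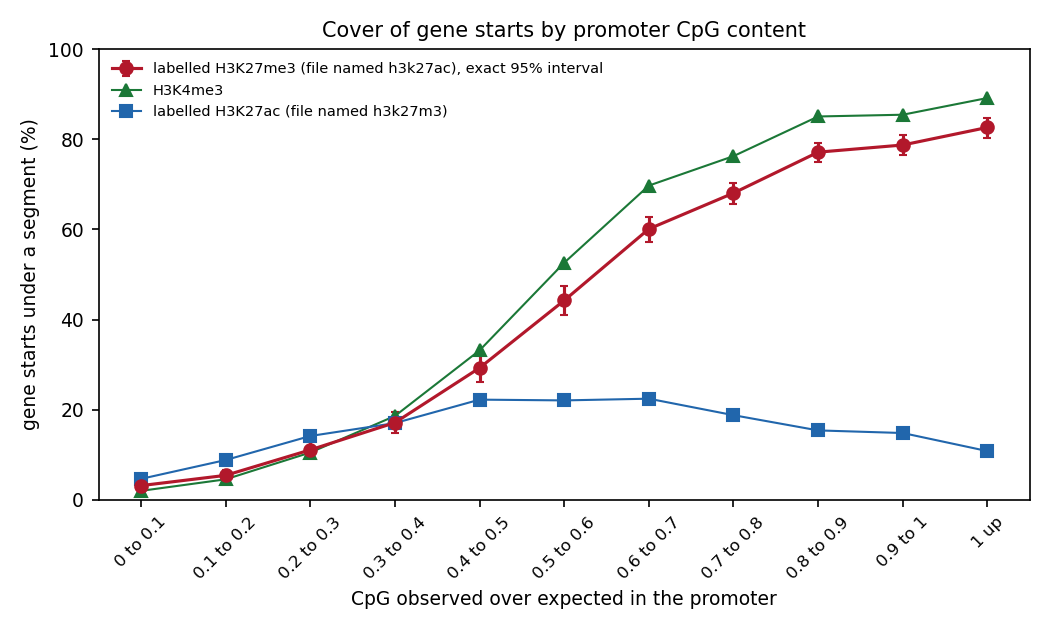
Percent of gene starts under a segment by the ratio of observed to expected CpG in the promoter, for the h3k27ac-named library (red, with exact 95% intervals), H3K4me3 (green) and the h3k27m3-named library (blue). The share in the h3k27ac-named library climbs with CpG content to 82.7%, above H3K4me3 at ratios under 0.3 (11.1% against 10.5% at 0.2 to 0.3) and below it at higher ones (60.1% against 69.7% at 0.6 to 0.7), while the h3k27m3-named library is highest at middle ratios, at 22.4% for 0.6 to 0.7.

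Short promoter motifs were counted on both strands of the same 300 bases, as descriptions. TATAAA was in 6.30% of covered and 20.1% of uncovered promoters (14.3% of all), and CCAAT in 40.7% and 38.8% (39.6% of all). GGGCGG, which itself holds a CpG, was in 68.8% and 27.98% (45.3% of all). Of the promoters printed above, Polr2a held TATAAA and GGGCGG, Hoxa9 GGGCGG and Alb CCAAT, and Gapdh and Cd3e held none of them. The 148 covered promoters without H3K4me3 at the start had a median CpG ratio of 0.259, near that of the uncovered promoters.

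Gene families ranged from nearly all members with a covered end to none. An end was covered in 73 of 80 genes of cytosolic ribosomal proteins, 74 of 78 of mitochondrial ribosomal proteins, 45 of 49 of the proteasome and 36 of 37 of respiratory complex I. Zinc finger (Zfp) genes were covered in 218 of 394 (55.3%, 50.3 to 60.3), above the 43.1% of all genes, and solute carriers in 147 of 346 (42.5%, 37.2 to 47.9), near it. Gimap genes were covered in 4 of 8 (50%, 15.7 to 84.3), an interval that includes 43.1%. Potassium channel genes were lower, at 15 of 93 (16.1%, 9.32 to 25.2). Cytochrome P450 genes (6 of 99), keratins (1 of 49), olfactory receptors (12 of 1106), vomeronasal receptors (2 of 353), bitter taste receptors (0 of 35) and Hox genes (0 of 39) were nearly or wholly uncovered. Krt83 was the covered keratin, with 46.5 reads per kb, chosen for mention after its value was seen.

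The widest segments lay over few genes each, several of them with known roles in lymphocytes. The widest, 113.6 kb at chr15:80521001-80634600 with 13491 reads (119 per kb), held an end of Enthd1 and of Grap2, an adaptor of T-cell receptor signalling. A segment of 101 kb lay inside Mad1l1, a mitotic checkpoint gene. Next came 83.6 kb over an end of Lrig1, the 78.2 kb over Tcf7, and 71.8 kb over an end of Ets1, a lymphoid transcription factor, with 10407 reads (145 per kb). Segments of 69 kb inside Runx1 and of 67.2 kb inside Bcl2l1, an anti-apoptotic gene, followed, and then 67 kb over Colq, 64.6 kb over Stk3 (205 reads per kb) and the 62.4 kb over Ccnd3 and an end of Taf8.

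Few long genes were covered throughout. Of 10038 genes over 20 kb, 359 had at least 50% of the span under segments and 32 at least 90%. Colq, Tcf7, Dntt, Cyb5a, Rgmb, Pik3ip1 and Endou were covered to 100%, and Sla and Ikzf3 to 98.8%. At Sla, on chromosome 15, the segment over the end held 37.9 precipitation and 42.7 control reads per kb (fold 1.38). Dntt encodes the terminal transferase of V(D)J joining, with 6884 reads in 50.6 kb.

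Among segments of 1 kb or more, leaving out those with control reads at 10 or more times the median (242 per kb or more), the densest included the T-cell receptor beta locus. Adjacent segments at chr6:41534201-41542200 and chr6:41543401-41568600 held 2159 reads (270 per kb, fold 18.1) and 6237 reads (247.5 per kb, fold 11.9). They lie over the constant genes Trbc1 and Trbc2 and over joining segments of Tcrb, which are not in the protein-coding table. Endou, an endoribonuclease gene, lay under 24.4 kb with 6502 reads (266.5 per kb), and a 52.6 kb segment at chr15:74887201-74939800, 5.50 kb from the end of Ly6m, held 14938 reads (284 per kb). Cerk (ceramide kinase) and Zc3h4 followed with 235 and 229 reads per kb over an end. The densest of this ranking, over an end of 4931408C20Rik at 302 reads per kb, also held 211 control reads per kb (fold 2.22).

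Histone genes shared segments. The segment over most starts, 40.2 kb at chr13:23725601-23765800 with 5232 reads (130.1 per kb), covered 8 of them, among them H1f1, H1f2, H3c2, H3c3, H4c1 and H4c2. Others covered 5 starts at H2ac8, H2bc8, H2bc7, H2ac7 and H3c4 and 4 at H2bc13, H2ac13, H3c10 and H2bc14. Most segments over a start covered a lone start (5439), and 894 covered a pair.

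Chromosomes differed in cover and in control reads. Either end was covered in 52.4% of genes on chromosome 11 and in 35.4% on chromosome 7, the highest and lowest of the autosomes. Chromosome X had 241 of 966 genes covered (24.9%), and Y 3 of 256 (1.17%). On chromosome 15 the median segment was 3600 bp wide, against 2400 to 2800 bp on the other 18 autosomes, and held 31.7 control reads per kb, against 23.6 to 24.7. Its median fold was 2.15, against 2.62 to 3.07. Chromosome X had 14.1 control reads per kb. The densities and widths given for Endou, Cerk, Stk3, Grap2, Ep300, Hdac7 and Myc lie on chromosome 15, and the part that its control reads have in them was not tested. Without chromosome 15 the share of starts covered was 41.7%, and 24 of the then 24 genes of the T-cell receptor list were covered.

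Away from genes, the 10493 segments outside all spans lay a median of 28.9 kb from the nearest gene end, 1667 of them within 5 kb and 2431 over 100 kb away. H3K4me1 met 87.4% of them and H3K4me3 48.2%, against 94.7% and 95.3% of the segments over gene ends. Segments with H3K4me1 and without H3K4me3 made up 10566 of the 33646 (31.4%), with 31.3 reads per kb, and Rbpj peaks met 3.90% of them, against 58.6% of the 18967 segments with both methylation marks, which held 60 reads per kb. Starts that were uncovered were mostly far from any segment. Of 10178, 5553 had none within 50 kb, and 535 had one within 1 kb.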

How the data were processed

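Chromatin of the histone samples had been fixed with formaldehyde alone, per the labels' protocols. Bowtie 0.12.7, SICER 1.1, MACS2 2.0.10 and the mm10 build are named in the submitters' processing notes. Each deposited segment carries, per the file headers, a count of precipitation reads and of control reads, a p-value, a fold (ratio) over the control and a false discovery rate. The deposited fold equalled the ratio of precipitation to control reads times 1.556, a factor read as total control reads over total precipitation reads. The same factor was 1.534 for H3K4me3, 1.238 for H3K4me1 and 1.819 for the h3k27m3-named library. The libraries were not brought to equal depth before their cover was compared. In the list described, the false discovery rate reached 0.000996 and segments held 16 to 14938 precipitation reads, 8326566 in all, beside 3351844 control reads. The input held 36.4 M filtered tags per the file headers of the factor peaks, and the total of the precipitation library is not given in the sources used here.

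Reads per kb are the deposited counts over segment width. Gene spans came from a RefSeq table of GRCm38.p6. Strand came from a RefSeq promoter table, which held 17492 of the 21887 genes (79.9%), 14731 of them with 1 listed start and none on chromosome 18. A gene start is the end of the span on that side, and exons and untranslated regions were not used here. Overlaps of at least 1 bp were computed with Python 3.11.15, numpy 2.4.6, pandas 2.3.3 and scipy 1.17.1, and the overlap code was checked on simulated intervals. With 1 library and no replicates there is no test, and intervals take genes and segments as independent, which neighbours are not. The members and the 16 lists (276 genes, Polr2a in 2 of them) were chosen with earlier results of these data known. The genes named are Actb and Gapdh, the first 3 of each list and its exceptions, genes at the densest and widest segments and at those over most starts, the long genes most fully covered and the longest genes. Further list members were named after their values were seen, and some that the rule covers are not reported here. Alternatives varied the segments kept, the distance to an end, merging and the genes used.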

Additional observations from a re-analysis of the deposited data

How the results depend on the processing

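Shares moved with the segments and genes kept, and the position that held most segments changed with them. With the upper 50% of segments by fold, 36.57% of starts were covered (41.8% as reported), 37.68% of genes had either end and 45.6% any base covered, and of those segments 42.07% lay over an end, 32.12% inside and 25.82% outside spans, at a median of 3400 bp and 65.16 reads per kb. At a false discovery rate of 1e-10 or less the values were 39.98%, 41.04%, 48.88%, 36.7%, 35.59%, 27.71%, 3600 bp and 56.67. With ends reached from within 1 kb, 44.87% of starts, 47.01% of genes and 28.38% of segments met, with 41.44% inside and 30.17% outside, and asking for 500 bp there gave 43.91% and 45.74%. Merging segments under 1 kb apart gave 28.54%, 41.17% and 30.29% by position, 2800 bp and 42.86 reads per kb. Without chromosomes X and Y, starts, ends and any base stood at 43.17%, 44.51% and 53.83%. With genes at least 1 kb from others alone they stood at 32.55%, 34.22% and 43.22%, and segments at 16% over an end, 30.91% inside and 53.08% outside, since fewer genes were used. Any start in the promoter table gave 44.91%, and either end of the same genes 43.96%. Subtracting scaled control reads left a median of 26.57 reads per kb. Covered list members numbered 139 to 159 over the alternatives that kept all 276, against 150. They numbered 143 of 266 without chromosomes X and Y, and 109 of 217 with genes at least 1 kb from others alone. Of 144 counts of single lists, 11 differed by over 1.5 times. Among these were 9 of 14 acetylation genes and 11 of 11 transcription genes once close neighbours were left out. The others were 9 counts of 0 to 2 in other lists. Within 1 kb, 1 developmental regulator counted as covered, and Prf1 dropped out of the natural killer list under both stricter choices of segments. Leaving out chromosome 15, chosen after seeing the data, moved no value by more than its interval.

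The main limits are that there is 1 library, that the file name disagrees with the label and the antibody, and that a list of segments holds no signal below its threshold. Genes with a segment just off an end (Ccna2, Zbtb7b) change state with the distance allowed. Segments of 16 reads or so have wide counting intervals. The total of precipitation reads is not given, and only the reads in segments and the factor of 1.556 bear on it. No paired analysis was possible because each group had 1 library.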

Other observations

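Divergent gene pairs were covered together. Of 437 head-to-head pairs with listed starts within 1000 bp, 393 had both starts covered (89.9%, 86.7 to 92.6), in each case by the same segment, 10 had 1 covered start and 34 had none. Of the 13857 other starts, 5443 were covered (39.3%), which is a share of single starts and not of pairs. Segments over a start had a median width of 3200 bp, more than the 1000 bp allowed within a pair. That 1 segment covers both starts therefore says little.

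Among genes that encode no protein, either end was covered in 159 of 408 tRNA genes (39.0%), 2538 of 12727 long non-coding RNA genes (19.9%), 171 of 1228 microRNA genes (13.9%) and 356 of 9944 pseudogenes (3.58%), against 43.1% of protein-coding genes. Joining segments of antigen receptors were covered in 21 of 82 (25.6%) and variable segments in 24 of 394 (6.09%). The tRNA genes had a median span of 72 bp, against 17169 bp in protein-coding genes, so that their 2 ends nearly always share a segment.

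Starts covered here and not by H3K4me3 numbered 235. Those with the densest segments were Ccdc15, Rcbtb2 and Niban3, at an H3K27 fold of 7.93, 7.70 and 7.94, and each had H3K4me1 over an end. There were 336 starts with H3K4me3 and neither H3K27 segment on the start itself. Of these, Nasp (a histone chaperone) and Fbxl19 (a CpG-binding protein) had the densest H3K4me3, at 403 and 393 reads per kb. Both genes still carried segments of the h3k27ac-named library. Nasp had one 0.276 kb from an end and 11.6% of its span covered. Fbxl19 had its far end and 15.2% of its span covered. These genes were named after their values were seen.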
